A study of Mus musculus with 64 samples.

Results

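Peaks of SOX2, β-catenin, LEF1, TCF7L1 and TCF7L2 were examined at 6 genes that encode transcription factors of the primitive streak and early mesoderm: T (Brachyury), Tbx6, Msgn1, Mixl1, Eomes and Mesp1. The genes were chosen by name out of 21938 protein-coding genes of the GENCODE annotation (release vM21), and all 6 were found. This choice was made with earlier results of these data known. Each was given a window of the gene body with 30 kb on either side, and a peak was counted when its summit, the position of highest signal, lay inside. Over 60 peak lists, 3245 of 12175735 peaks fell in the 6 windows. When each list was limited to its 20000 strongest peaks by the deposited fold enrichment over background, 717 of 1094879 peaks did.

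The libraries came from mouse embryonic stem cells of the HM1 line (strain 129) and were labelled 72 h, with 5 targets, 4 states and 3 biological replicates per group. Naive ESC were wild-type (WT) cells without treatment in 2i, a medium with the GSK3 inhibitor CHIR99021 and the MEK inhibitor PD0325901. The second state, caudal epiblast-like cells (CEpiLC), was the same untreated WT line grown in FGF and LGK974, a blocker of WNT secretion, with CHIR99021 added from day 2 to day 3. SOX2-ON and SOX2-OFF cells carried the genotype Sox2-/- and a doxycycline-driven Sox2 transgene at the HPRT locus, and went through the same differentiation with 1 µg/ml doxycycline maintained (SOX2-ON) or withdrawn (SOX2-OFF). This SOX2-TetON line was derived from picked clones of the HM1 line. The design thus gave 2 states of high SOX2, naive ESC and SOX2-ON, and 2 of low SOX2, the CEpiLC and SOX2-OFF states. In the WT line the SOX2 level cannot be told apart from the medium. Naive ESC and SOX2-ON differ in both cell line and medium. A gap between the lines in the tests below therefore cannot be told apart from the medium either. TCF7L1 and TCF7L2 are named TCF3 and TCF4 in the labels.

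On GRCm38 the plus-strand genes were T (ENSMUSG00000062327.10) at chr17:8434423-8442496, Tbx6 (ENSMUSG00000030699.16) at chr7:126781483-126785560 and Eomes (ENSMUSG00000032446.14) at chr9:118478212-118486132. The minus-strand genes were Msgn1 (ENSMUSG00000047002.2) at chr12:11208360-11208972, Mixl1 (ENSMUSG00000026497.7) at chr1:180693043-180697034 and Mesp1 (ENSMUSG00000030544.5) at chr7:79792241-79793788. The windows of T and Msgn1 held no start of another protein-coding gene, and those of Mixl1, Eomes and Mesp1 held 1 each (Acbd3, Golga4 and Mesp2).

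In the canonical WNT pathway, stabilised β-catenin enters the nucleus and is held on DNA by the TCF/LEF proteins, among them LEF1, TCF7L1 and TCF7L2, which recognise sequences around CTTTGA. In the gastrulating embryo WNT signalling at the primitive streak switches on T, Tbx6 and other mesoderm regulators. SOX2, a factor of pluripotent and neural cells that recognises CATTGT or CTTTGT, is lost as cells enter mesoderm.

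Summits closer than 200 bp were joined into sites. In each window up to 4 sites were followed, those with a summit in the largest number of libraries. The site at the transcription start was added where 1 lay within 1 kb, 26 in all. Sites are named by gene and distance in kb from the start of the gene, positive in the direction of transcription. They had a summit in 2 (Mixl1 −18.4 and Eomes +0.4) to 47 (T −0.3) of 60 libraries. The sequences that carry the main differences are shown here, each 100 bp either side of the strongest summit, on the plus strand of GRCm38 (mm10), read from the RefSeq assembly. Capitals mark CTTTGA (TCF/LEF) and CATTGT or CTTTGT (SOX), on either strand. The first sequences are the T start site and the distal T site, and the site with the highest CEpiLC fold of β-catenin at Msgn1, Mixl1, Eomes and Mesp1. At T −0.3, T −25.3 and Eomes −9.8 β-catenin was found in every state.
T −0.3 (intergenic, upstream of T), chr17:8434088-8434288: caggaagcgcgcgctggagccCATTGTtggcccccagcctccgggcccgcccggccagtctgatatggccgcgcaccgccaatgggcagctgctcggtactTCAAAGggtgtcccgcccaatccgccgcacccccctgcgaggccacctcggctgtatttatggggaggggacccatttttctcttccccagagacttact
T −25.3 (intron of T2), chr17:8409006-8409206: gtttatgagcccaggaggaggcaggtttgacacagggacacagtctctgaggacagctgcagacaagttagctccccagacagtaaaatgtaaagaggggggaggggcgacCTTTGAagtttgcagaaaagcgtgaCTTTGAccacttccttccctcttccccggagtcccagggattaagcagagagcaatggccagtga
Msgn1 −0.2 (intergenic, upstream of Msgn1), chr12:11209025-11209225: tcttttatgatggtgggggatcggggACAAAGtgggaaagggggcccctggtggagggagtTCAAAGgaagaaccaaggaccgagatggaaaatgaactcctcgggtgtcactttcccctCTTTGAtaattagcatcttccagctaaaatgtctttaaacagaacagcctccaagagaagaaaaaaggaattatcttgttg
Mixl1 −10.5 (intergenic), chr1:180707467-180707667: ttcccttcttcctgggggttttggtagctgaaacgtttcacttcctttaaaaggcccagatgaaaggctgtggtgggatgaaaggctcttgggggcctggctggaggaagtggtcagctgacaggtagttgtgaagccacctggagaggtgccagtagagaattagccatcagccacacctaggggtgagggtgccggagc
Eomes −9.8 (intergenic), chr9:118468251-118468451: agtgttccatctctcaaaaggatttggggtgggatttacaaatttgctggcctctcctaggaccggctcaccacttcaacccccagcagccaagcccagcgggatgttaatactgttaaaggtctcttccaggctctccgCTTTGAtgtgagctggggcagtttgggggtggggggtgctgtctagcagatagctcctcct
Mesp1 +4.3 (intergenic, downstream of Mesp1), chr7:79789352-79789552: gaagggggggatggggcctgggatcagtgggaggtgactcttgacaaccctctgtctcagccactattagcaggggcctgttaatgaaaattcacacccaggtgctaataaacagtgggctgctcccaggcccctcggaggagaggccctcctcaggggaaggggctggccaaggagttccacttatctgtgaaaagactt

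Another pair of sites is shown because β-catenin and TCF7L1 were found there in naive ESC.
Msgn1 −7.7 (intergenic), chr12:11216532-11216732: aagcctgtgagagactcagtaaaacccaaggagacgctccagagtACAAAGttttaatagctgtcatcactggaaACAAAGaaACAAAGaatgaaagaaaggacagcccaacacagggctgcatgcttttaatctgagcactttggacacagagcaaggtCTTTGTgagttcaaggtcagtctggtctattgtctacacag
Mesp1 +21.8 (intron of Wdr93), chr7:79771859-79772059: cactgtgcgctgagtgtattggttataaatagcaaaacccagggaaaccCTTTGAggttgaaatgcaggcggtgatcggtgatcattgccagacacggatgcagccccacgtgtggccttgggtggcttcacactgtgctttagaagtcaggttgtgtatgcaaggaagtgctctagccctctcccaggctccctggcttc

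The main Tbx6 site lay in the 3′ UTR of the gene, and only its TCF/LEF match with the bases around it is shown.
Tbx6 +3.9, chr7:126785328-126785357: ccccctctggctTCAAAGctcaggcaaggc

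CTTTGA was found at T −0.3 (1 match), T −25.3 (2), Msgn1 −0.2 (2), Eomes −9.8 (1), Mesp1 +21.8 (1) and Tbx6 +3.9 (1), and these letters were not in the 201 bp at Mixl1 −10.5, Mesp1 +4.3 and Msgn1 −7.7. At T −0.3 the match lay 4 bp from the summit. The Msgn1 −7.7 window held 4 matches of CTTTGT. A T-box sequence, GGTGTG, was present at Tbx6 +3.9, Mixl1 −10.5 and Mesp1 +4.3, and once more at Mesp1 +0.2, a site in the 5′ UTR of Mesp1. Of the 26 sites, 14 held the TCF/LEF sequence (53.8%), 7 a SOX sequence (26.9%), and 4 the T-box sequence (15.4%). The CDX sequence, TTTATG, was present at 4 sites (15.4%). The FOXH1 sequence, AATCCACA, was present at 1 site, Mixl1 −18.4 (3.85%). These 26 windows were centred on the strongest summit of any target. The windows set beside them were centred on β-catenin summits alone, so the shares are not of matched windows. In windows of the same length around the strongest β-catenin summits of each state, the TCF/LEF sequence was present in 36.6% (naive ESC), 39.2% (CEpiLC), 30.8% (SOX2-ON) and 37.8% (SOX2-OFF). The same windows held a SOX sequence in 43.2%, 27.7%, 40.8% and 30.4%, the T-box sequence in 15.9%, 15.6%, 13.5% and 16.1%, the CDX sequence in 10.3%, 9.29%, 11.0% and 9.67%, and the FOXH1 sequence in 0.967%, 0.631%, 0.94% and 0.997%, in that order of states.

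The lists differed in length, which touches every value that follows. The β-catenin lists held 10930 to 20453 peaks in CEpiLC, 49737 to 222062 in naive ESC, 39154 to 461476 in SOX2-ON and 3423 to 415244 in SOX2-OFF, where replicate 2 was the shortest. Across all targets the lists ran from 1628 peaks (CEpiLC TCF7L1 replicate 1) to 991719. A list below 20000 peaks entered whole. Peaks, summits and counts of libraries are those among the 20000 strongest unless all deposited peaks are named, so a library without a summit at a site can still hold a weaker peak there. Read depth is unknown, since the lists hold no read counts. Strength was therefore given as a rank score, log10 of 20001 divided by the rank of the strongest peak of the window within its own list, and 0 without a peak. A score of 1 is a rank of about 2000 and a score of 2 a rank of about 200. Low and high SOX2 were compared by an exact permutation test, two-sided, within each cell line (400 assignments, smallest p = 0.005), over the 12 libraries of a target.

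β-catenin was placed higher in the lists of low-SOX2 cells than of high-SOX2 cells at T, Tbx6, Mixl1 and Eomes, and the difference did not pass the test at Msgn1 and Mesp1. The mean difference was 1.14 at Tbx6 (exact permutation p = 0.02), 1.07 at Mixl1 (exact permutation p = 0.02), 0.70 at Eomes (exact permutation p = 0.005) and 0.68 at T (exact permutation p = 0.025). It was 0.50 at Msgn1 (exact permutation p = 0.095) and 0.21 at Mesp1 (exact permutation p = 0.285), the latter with a range of 0.09 (without SOX2-OFF replicate 1) to 0.39 (without SOX2-OFF replicate 2) when 1 library was left out. Among all 20099 genes with a β-catenin peak in their window, 9.87% passed in this direction and 12.9% in the other, and the median difference was −0.02. After Benjamini-Hochberg adjustment over all of these genes the members' permutation p ranged from 0.0713 (Eomes) to 0.608 (Mesp1), and the lowest of any gene was 0.0713. On a fold scale, log2(fold + 1) of the same peaks, the 4 differences kept their sign and did not pass (exact permutation p = 0.055 to 0.16), while with all β-catenin lists cut to 3423 peaks the 4 calls stood (exact permutation p = 0.005 to 0.025). With all deposited peaks the differences at Tbx6 (0.98, exact permutation p = 0.08) and Mixl1 (0.89, exact permutation p = 0.095) no longer passed.

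**Figure D1:**
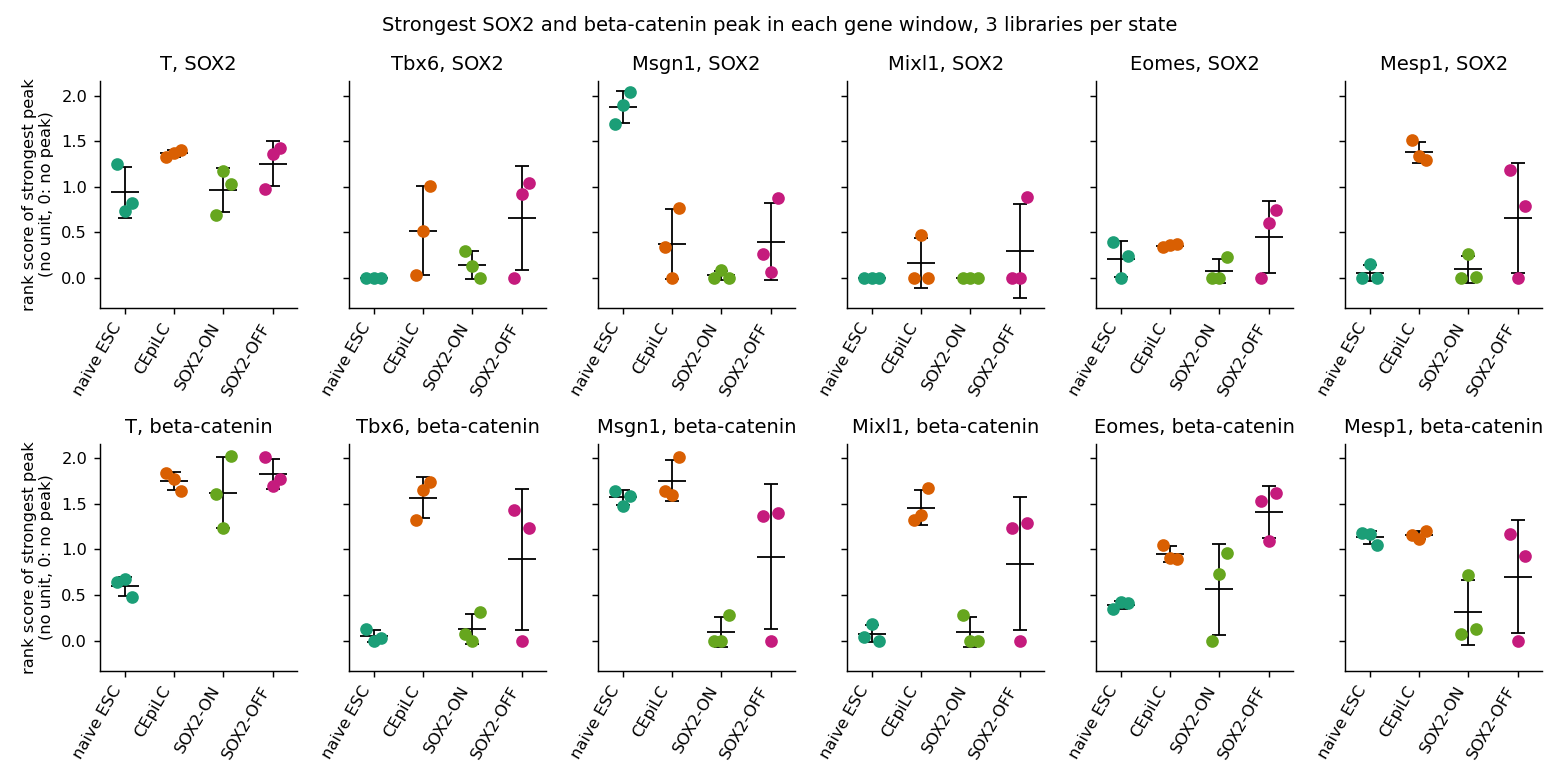
Rank score (log10 of 20001 over rank, vertical axis, no unit) of the strongest SOX2 peak (top) and β-catenin peak (bottom) in each gene window, by state. Points are libraries, bars the mean ± SD of 3. In CEpiLC all β-catenin points lie above those of naive ESC for T, Tbx6, Mixl1 and Eomes, and the states overlap for Msgn1 and Mesp1. The share of all genes without such overlap was not counted.

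T encodes the T-box factor that defines the primitive streak and posterior mesoderm, and its window was the most widely occupied. The site T −0.3 had a summit in 47 of 60 libraries, T −19.8 in 38, T −25.3 in 35 and T −4.3 in 29. At T −0.3 the deposited fold of β-catenin was 34.1, 38.4 and 28.1 in CEpiLC, 33.3, 15.3 and 50.5 in SOX2-ON, and 58.8, 14.0 and 53.8 in SOX2-OFF. In naive ESC it was 15.0 and 9.84 in replicates 1 and 3, and replicate 2 had no summit there. The 3 differentiated states overlapped in fold, and both naive ESC values lay below all of theirs except SOX2-OFF replicate 2.

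In rank score T stood at 0.59 ± 0.11 in naive ESC (mean ± SD, n = 3), 1.62 ± 0.39 in SOX2-ON, 1.75 ± 0.10 in CEpiLC and 1.83 ± 0.16 in SOX2-OFF. The last 3 did not differ beyond their spread. The difference between low and high SOX2 was thus 1.16 in the WT line and 0.20 in the SOX2-TetON line, with overlapping SOX2-ON and SOX2-OFF libraries. The cell lines were not distinguished by the test of this gap (exact permutation of line labels, p = 0.075).

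At T −0.3 the TCF/LEF proteins were found mainly in differentiated cells. TCF7L2 reached a fold of 21.4, 37.7 and 38.0 in CEpiLC, 12.2, 8.41 and 19.2 in SOX2-ON and 18.8, 19.7 and 27.6 in SOX2-OFF, against 5.21 and 6.90 in 2 naive ESC libraries and no summit in replicate 3. LEF1 had summits in 3 of 3 CEpiLC and SOX2-OFF libraries, 2 of 3 SOX2-ON and 0 of 3 naive ESC libraries, and TCF7L1 gave the same counts. In all deposited peaks LEF1, TCF7L1 and TCF7L2 were there in 1, 2 and 3 of 3 naive ESC libraries. SOX2-ON had them in 3, 2 and 3 of 3. The distal T −25.3 site, inside an intron of the neighbouring gene T2, had β-catenin in 3 of 3 libraries of each differentiated state. Its fold was 23.2, 19.8 and 16.6 in CEpiLC, 9.90, 7.96 and 15.2 in SOX2-ON, and 24.4, 8.02 and 35.8 in SOX2-OFF, with 11 and 7.38 in naive ESC replicates 1 and 3.

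SOX2 itself was found at T in every library, but at different places. At T −4.3 all 12 SOX2 libraries had a summit, with folds of 14.0, 13.8 and 14.5 in naive ESC, 16.9, 13.9 and 13.5 in CEpiLC, 10.5, 17.8 and 18.8 in SOX2-ON and 6.63, 18.4 and 24.6 in SOX2-OFF. At T −25.3 SOX2 had summits in 3 of 3 CEpiLC and 2 of 3 SOX2-OFF libraries, and in 0 of 3 naive ESC and SOX2-ON libraries. At T −0.3 it had them in 3 of 3 CEpiLC, 3 of 3 SOX2-ON, 2 of 3 SOX2-OFF and 1 of 3 naive ESC libraries. The SOX2 rank score was higher at low SOX2 by 0.36 (exact permutation p = 0.03), and without 1 of SOX2-ON replicate 1, SOX2-OFF replicate 2 or SOX2-OFF replicate 3 it no longer passed (exact permutation p = 0.06 to 0.075).

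Tbx6, a T-box factor of the paraxial mesoderm, had a single strong site, Tbx6 +3.9 in its 3′ UTR. β-catenin there had folds of 20.6, 33.0 and 31.5 in CEpiLC and 30.1 and 25.7 in SOX2-OFF replicates 1 and 3. SOX2-OFF replicate 2, naive ESC and SOX2-ON had no β-catenin summit at this site, also when all deposited peaks were searched. LEF1 showed the same order, with 9.85, 23.4 and 23.5 in CEpiLC and 8.67 and 19.9 in SOX2-OFF replicates 1 and 3. TCF7L1 was present in 2 of 3 CEpiLC and 2 of 3 SOX2-OFF libraries, and SOX2 in replicate 3 of each of these states. In all deposited peaks LEF1 and TCF7L1 were each there in 1 naive ESC and 1 SOX2-ON library, and SOX2 in 1 naive ESC library.

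In rank score, β-catenin at Tbx6 fell in the order CEpiLC (1.57 ± 0.22, mean ± SD, n = 3), SOX2-OFF (0.89 ± 0.78), SOX2-ON (0.13 ± 0.16) and naive ESC (0.05 ± 0.06). CEpiLC and naive ESC did not overlap, and the share of all genes without such overlap was not counted. SOX2-OFF overlapped with SOX2-ON through replicate 2, and SOX2-ON and naive ESC did not differ beyond their spread. Without SOX2-OFF replicate 2 the β-catenin difference was 1.36 in place of 1.14. For SOX2 the Tbx6 difference was 0.52 (exact permutation p = 0.05), with no SOX2 peak among the 20000 strongest in naive ESC and a peak in all 3 naive ESC libraries when all deposited peaks were taken. It did not pass when the flank was 10 kb (0.38, exact permutation p = 0.14), nor when summits nearest to the start of another gene were left out (0.28, exact permutation p = 0.41). Without any 1 library other than SOX2-OFF replicate 1 or CEpiLC replicate 1 it did not pass either (0.39 to 0.56, exact permutation p = 0.065 to 0.11). The window holds 7 starts of other genes, among them Ypel3, Ppp4c and Fam57b.

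Weaker sites lay at the start of Tbx6. At Tbx6 −0.3 β-catenin had folds of 4.71, 6.34 and 5.58 in CEpiLC and 9.06 in SOX2-OFF replicate 3. Tbx6 −1.4, in the coding exon of Ypel3, had β-catenin in CEpiLC (4.52, 6.46 and 3.87) and in naive ESC replicate 1 (7.07). SOX2 was there in SOX2-ON replicates 1 and 2 (7.76 and 6.61) and CEpiLC replicate 2 (5.94). TCF7L1 had the highest folds of the site, 11.65 and 9.5 in SOX2-ON replicates 2 and 3 and 10.78 in naive ESC replicate 3. In CEpiLC replicate 3 it had 5.86.

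Msgn1 encodes a basic helix-loop-helix factor of the presomitic mesoderm, and its β-catenin peaks changed place between states. In CEpiLC the strongest was at the start of the gene, Msgn1 −0.2, with folds of 29.5, 30.9 and 45.9. SOX2-OFF replicates 1 and 3 had 27.4 and 33.1 there. In naive ESC it was at Msgn1 −7.7, with folds of 46.4, 23.7 and 42.4, and none of the other 9 β-catenin libraries had a summit at that site, also in all deposited peaks. SOX2-ON had neither site among its 20000 strongest peaks, and its only β-catenin peak of that strength in the window was in replicate 3, at −14194 bp from the start of Msgn1.

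At Msgn1 −7.7, SOX2 had folds of 30.9, 38.1 and 40.0 and TCF7L1 of 57.5, 48.9 and 97.4 in naive ESC. Among the 20000 strongest peaks of the other states, SOX2 was found there in SOX2-ON replicate 2 with a fold of 6.31 and TCF7L1 in no library. In all deposited peaks TCF7L1 was there in SOX2-ON replicate 3 with a fold of 6.49. At Msgn1 −0.2 LEF1 had folds of 16.1, 13.3 and 40.1 in CEpiLC, and TCF7L1 15.4 and 17.0 in replicates 2 and 3. No naive ESC or SOX2-ON library of any target had a summit at Msgn1 −0.2 among its 20000 strongest peaks. In all deposited peaks SOX2 and β-catenin were each there in 1 SOX2-ON library, and TCF7L1 in 1 naive ESC library. Msgn1 −18.7 and Msgn1 −23.6 also had β-catenin in all 3 CEpiLC libraries, in SOX2-OFF replicates 1 and 3 and in none of the 6 high-SOX2 libraries.

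Because the window score takes the strongest peak wherever it lies, Msgn1 had a high β-catenin score both in CEpiLC (1.75 ± 0.23, mean ± SD, n = 3) and in naive ESC (1.57 ± 0.09), which overlapped. SOX2-OFF stood at 0.92 ± 0.80 and SOX2-ON at 0.09 ± 0.16. Without SOX2-OFF replicate 2, which had no peak in the window, the difference between low and high SOX2 was 0.74 (exact permutation p = 0.015). For SOX2 the score was 1.87 ± 0.17 in naive ESC, 0.40 ± 0.42 in SOX2-OFF, 0.37 ± 0.39 in CEpiLC and 0.03 ± 0.05 in SOX2-ON. The WT line changed by −1.50 and the SOX2-TetON line by 0.37 from high to low SOX2, and this gap of 1.87 passed the test between lines (exact permutation of line labels, p = 0.045). Without 1 of SOX2-ON replicate 1, SOX2-ON replicate 3, SOX2-OFF replicate 3 or CEpiLC replicate 2 it did not pass (1.64 to 1.86, exact permutation p = 0.055 to 0.075). Mean SOX2 scores over both lines differed by −0.57 (exact permutation p = 0.125).

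**Figure D2:**
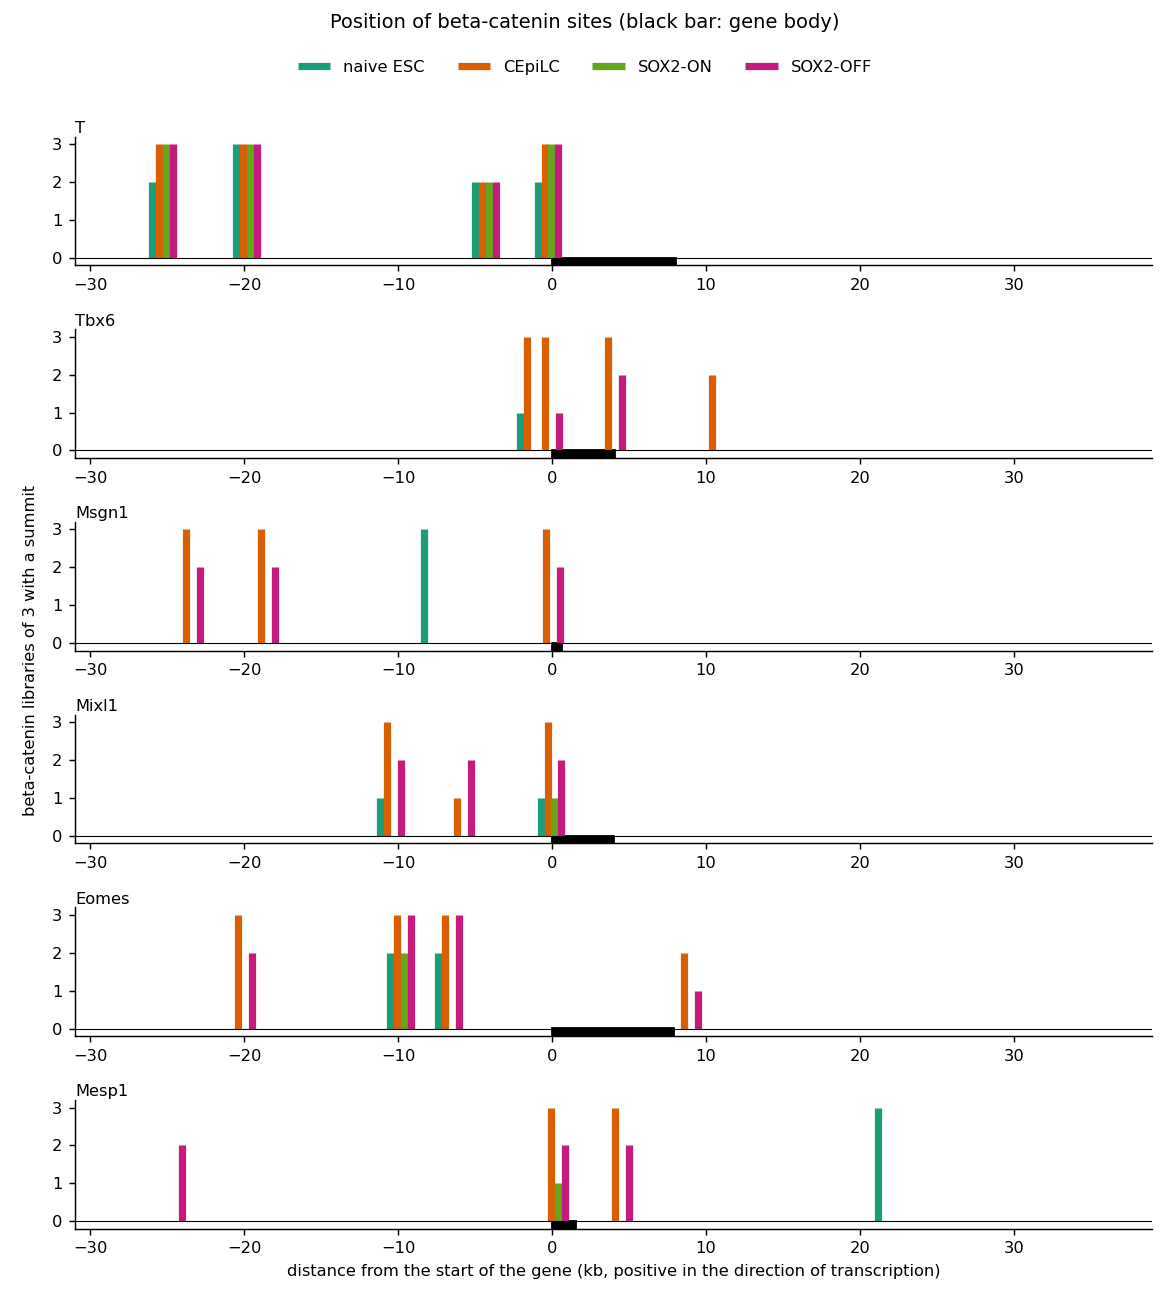
Number of β-catenin libraries out of 3 (vertical axis) with a summit at each followed site, by distance from the start of the gene in kb (horizontal axis). Bars of the 4 states at 1 site are drawn side by side. The naive ESC sites Msgn1 −7.7 and Mesp1 +21.8 have 3 libraries of naive ESC and none of any other state.

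Mixl1, a homeobox gene of the mesendoderm, had its strongest site at Mixl1 −10.5. β-catenin had folds of 20.7, 21.9 and 29.1 in CEpiLC and 22.1 and 28.1 in SOX2-OFF replicates 1 and 3. A summit with a fold of 6.77 was present in naive ESC replicate 2, and SOX2-ON had none, also in all deposited peaks. LEF1 was there in 3 of 3 CEpiLC libraries with 11.4, 18.2 and 24.7 and in SOX2-OFF replicates 1 and 3 with 7.60 and 14.2. TCF7L1 was present in the same 5 libraries by state and number, and TCF7L2 in 2 of 3 CEpiLC and 1 of 3 SOX2-OFF libraries.

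β-catenin rank scores at Mixl1 were 1.46 ± 0.19 in CEpiLC (mean ± SD, n = 3), 0.84 ± 0.73 in SOX2-OFF, 0.09 ± 0.16 in SOX2-ON and 0.07 ± 0.09 in naive ESC. SOX2-OFF replicate 2, the shortest list, had no peak in the window and set its overlap with SOX2-ON. At the start of the gene, Mixl1 −0.1, β-catenin had low folds of 6.43 to 7.51 in CEpiLC and 8.49 and 9.67 in SOX2-OFF, beside 6.30 in naive ESC replicate 1 and 8.21 in SOX2-ON replicate 1. TCF7L2 was present in 3 of 3 CEpiLC, 2 of 3 SOX2-OFF, 1 of 3 SOX2-ON and 0 of 3 naive ESC libraries. In all deposited peaks β-catenin and TCF7L2 were each at Mixl1 −0.1 in 3 CEpiLC, 2 SOX2-OFF, 2 SOX2-ON and 2 naive ESC libraries. For SOX2 at Mixl1, 1 CEpiLC and 1 SOX2-OFF library had a peak in the window among the 20000 strongest, against 3 naive ESC, 2 CEpiLC, 2 SOX2-ON and 3 SOX2-OFF libraries in all deposited peaks. The difference of 0.23 did not pass (exact permutation p = 0.5).

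Eomes encodes a T-box factor of the anterior primitive streak, needed for definitive endoderm and cardiac mesoderm. Its main site, Eomes −9.8, had β-catenin in all 3 SOX2-OFF libraries with folds of 34.6, 6.40 and 44.2. CEpiLC had 14.4, 10.2 and 8.65, SOX2-ON 8.20 and 16.7 in replicates 2 and 3, and naive ESC 9.75 and 8.96 in replicates 1 and 3. TCF7L1 at this site had 16.8, 37.6 and 22.3 in SOX2-OFF, 12.7, 7.50 and 18.7 in naive ESC, 9.15 and 36.1 in SOX2-ON replicates 2 and 3, and 8.38 and 11.9 in CEpiLC replicates 2 and 3.

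In rank score β-catenin at Eomes was highest in SOX2-OFF (1.41 ± 0.28, mean ± SD, n = 3), followed by CEpiLC (0.95 ± 0.08), SOX2-ON (0.56 ± 0.50) and naive ESC (0.39 ± 0.04). Low and high SOX2 libraries of β-catenin did not overlap at Eomes in either line. The share of all genes without such overlap was not counted. SOX2-OFF exceeded CEpiLC by 0.46, with no overlap between the libraries, and for this too the share of all genes was not counted. That comparison of 3 against 3 had a smallest possible p of 0.1, which it reached (exact permutation). At the other members SOX2-OFF minus CEpiLC was 0.075 for T and between −0.83 and −0.46 for the rest, with exact permutation p from 0.1 to 0.6.

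Nearer the gene, Eomes −6.7 had β-catenin in 3 of 3 CEpiLC (11.8, 8.69 and 7.87) and 3 of 3 SOX2-OFF libraries (12.1, 6.04 and 16.8), in 2 naive ESC libraries (7.02 and 5.82) and in no SOX2-ON library among the 20000 strongest peaks. In all deposited peaks 3 naive ESC libraries and 1 SOX2-ON library had it. In the 20000 strongest it was the only followed site with β-catenin in 3 of 3 SOX2-OFF and 0 of 3 SOX2-ON libraries, out of 8 with a summit in at least 3 of these 6. In the genome 2.64% of 7298 such sites had this pattern, without the choice by number of libraries that was made for the followed sites. Eomes −20.2 had β-catenin in all 3 CEpiLC libraries, SOX2-OFF replicates 1 and 3 and none of the 6 high-SOX2 libraries among the 20000 strongest peaks, with folds of 5.96 to 9.01. All deposited peaks added 1 naive ESC and 1 SOX2-ON library. SOX2 was absent from the 20000 strongest peaks at Eomes −9.8 in all 12 libraries. The SOX2 difference of the whole Eomes window was 0.26 (exact permutation p = 0.11), and 0.30 with a 10 kb flank or with summits nearest to another gene left out (exact permutation p = 0.045 for each).

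Mesp1, a basic helix-loop-helix gene of early cardiac and cranial mesoderm, had the largest mean SOX2 difference of the 6 members. SOX2 at Mesp1 +4.3 had folds of 20.1, 17.7 and 19.6 in CEpiLC and 9.21 and 11.4 in SOX2-OFF replicates 1 and 3, and no summit among the 20000 strongest peaks of the 6 high-SOX2 libraries. In all deposited peaks 1 naive ESC library had SOX2 there. The SOX2 rank score of the window was 1.38 ± 0.11 in CEpiLC (mean ± SD, n = 3), 0.66 ± 0.60 in SOX2-OFF, 0.09 ± 0.15 in SOX2-ON and 0.05 ± 0.09 in naive ESC. Low exceeded high SOX2 by 0.95 (exact permutation p = 0.02, 0.131 after Benjamini-Hochberg adjustment over all genes). This difference did not pass with replicates taken as blocks (exact permutation p = 0.0625) or on the log2(fold + 1) scale. The SOX2-OFF and SOX2-ON libraries overlapped. Across 20288 genes with a SOX2 peak in the window, 14.4% passed in this direction and 8.71% in the other, and the median difference was 0.04. Of the 6 members, T, Tbx6 and Mesp1 passed upwards and none downwards.

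β-catenin shared Mesp1 +4.3, with 16.5, 14.3 and 14.0 in CEpiLC and 9.69 and 8.51 in SOX2-OFF replicates 1 and 3. In SOX2-OFF its stronger peak lay at Mesp1 +0.2, with 19.6 and 15.3 against 7.14, 10.6 and 8.26 in CEpiLC. TCF7L1 at Mesp1 +0.2 was present in 3 of 3 SOX2-OFF libraries (14.3, 10.2 and 18.3), 2 of 3 SOX2-ON, 2 of 3 CEpiLC and 0 of 3 naive ESC libraries. In naive ESC β-catenin lay far downstream, at Mesp1 +21.8 in an intron of Wdr93, with folds of 29.5, 17.1 and 22.4, and TCF7L1 had 41.5, 27.6 and 63.3 there. In SOX2-ON the Mesp1 +0.2 site had β-catenin among the 20000 strongest peaks in replicate 2 (8.10), and in 2 of 3 libraries in all deposited peaks. None of the other 9 β-catenin libraries had a summit at Mesp1 +21.8, also in all deposited peaks.

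As at Msgn1, this change of place left the window score alike: 1.13 ± 0.07 in naive ESC and 1.16 ± 0.05 in CEpiLC (mean ± SD, n = 3), with 0.70 ± 0.62 in SOX2-OFF and 0.31 ± 0.36 in SOX2-ON. With a flank of 10 kb, which leaves Mesp1 +21.8 out, the β-catenin difference between low and high SOX2 at Mesp1 was 0.78 in place of 0.21 (exact permutation p = 0.02). With the smaller flank the difference was larger in the WT line (SOX2-TetON minus WT −0.77, exact permutation of line labels, p = 0.015).

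**Figure D3:**
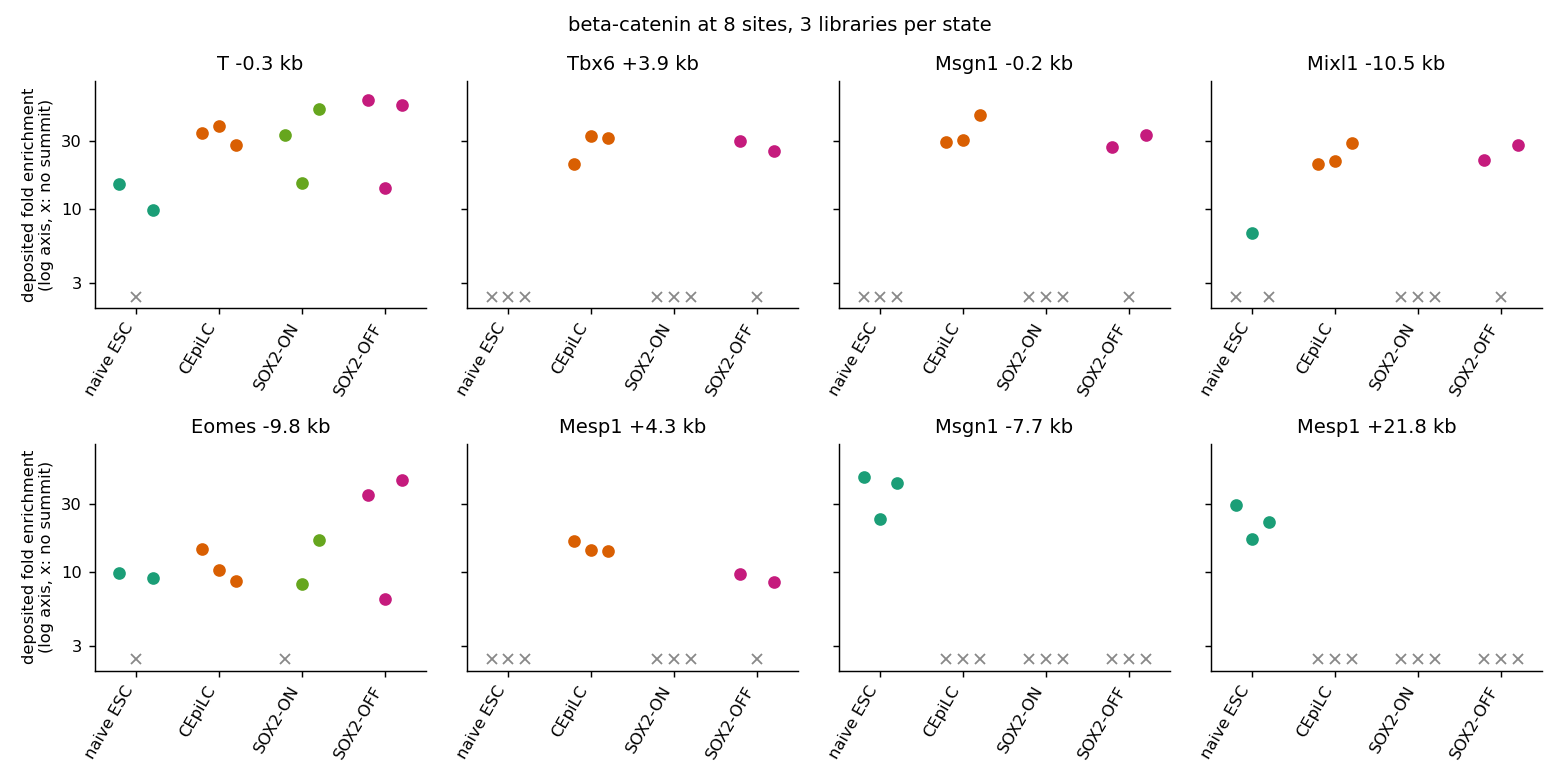
Deposited fold enrichment of β-catenin (log axis) at 8 sites by state. Each point is 1 of 3 libraries, and a cross marks a library with no summit at the site among its 20000 strongest peaks. Tbx6 +3.9, Msgn1 −0.2 and Mesp1 +4.3 have points in CEpiLC and in SOX2-OFF replicates 1 and 3 and crosses elsewhere, and Msgn1 −7.7 and Mesp1 +21.8 have points in naive ESC alone.

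Over the 26 followed sites, β-catenin summits filled 55 of 78 site and library pairs in CEpiLC, 41 in SOX2-OFF, 22 in naive ESC and 15 in SOX2-ON. SOX2 filled 31, 23, 9 and 15 in the same order, LEF1 47, 19, 6 and 7, TCF7L1 24, 35, 19 and 17, and TCF7L2 23, 11, 7 and 6. The sites were chosen for the number of libraries, so these sums are a description.

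The pattern of 3 of 3 CEpiLC and 0 of 3 naive ESC libraries was set beside the genome, for sites with a summit in at least 3 of the 6 libraries. The followed sites were chosen for their number of libraries and the genome sites were not. Their shares, here and for the reverse pattern, are therefore a description and not a test of enrichment. For β-catenin it held at 8 of 19 followed sites: both Tbx6 sites at −0.3 and +3.9, Msgn1 −0.2, −18.7 and −23.6, Eomes −20.2, and Mesp1 +4.3 and +0.2. In the genome 21.6% of 13097 sites had it. For LEF1 it held at 8 of 11, namely T −0.3, Tbx6 +3.9, Msgn1 −0.2 and −23.6, Mixl1 −10.5 and the Eomes sites at −20.2, −9.8 and −6.7, with 42.4% in the genome. For TCF7L1 it held at T −0.3 and Mixl1 −10.5, 2 of 8, with 0.809% in the genome, where the CEpiLC list of replicate 1 held 1628 peaks. For SOX2 it held at 3 of 7 (T −25.3, Mesp1 +4.3 and Mesp1 −24.8) with 18.0%, and for TCF7L2 at 2 of 4 (T −25.3 and Mixl1 −0.1) with 15.0%.

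The reverse pattern, 3 of 3 naive ESC and 0 of 3 CEpiLC libraries, held for β-catenin at Msgn1 −7.7 and Mesp1 +21.8, 2 of 19, with 30.0% in the genome. It held for SOX2 at Msgn1 −7.7, 1 of 7, with 16.9%. For TCF7L1 it held at Msgn1 −7.7, Mesp1 +21.8 and T −19.8, 3 of 8, with 71.7%. Among the 20000 strongest peaks, Msgn1 −7.7 and Mesp1 +21.8 also lacked β-catenin and TCF7L1 in SOX2-ON, the other state of high SOX2. Sites with 3 of 3 naive ESC and 0 of 3 SOX2-ON libraries made up 24.8% of 11226 for β-catenin and 30.2% of 13984 for TCF7L1.

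**Figure D4:**
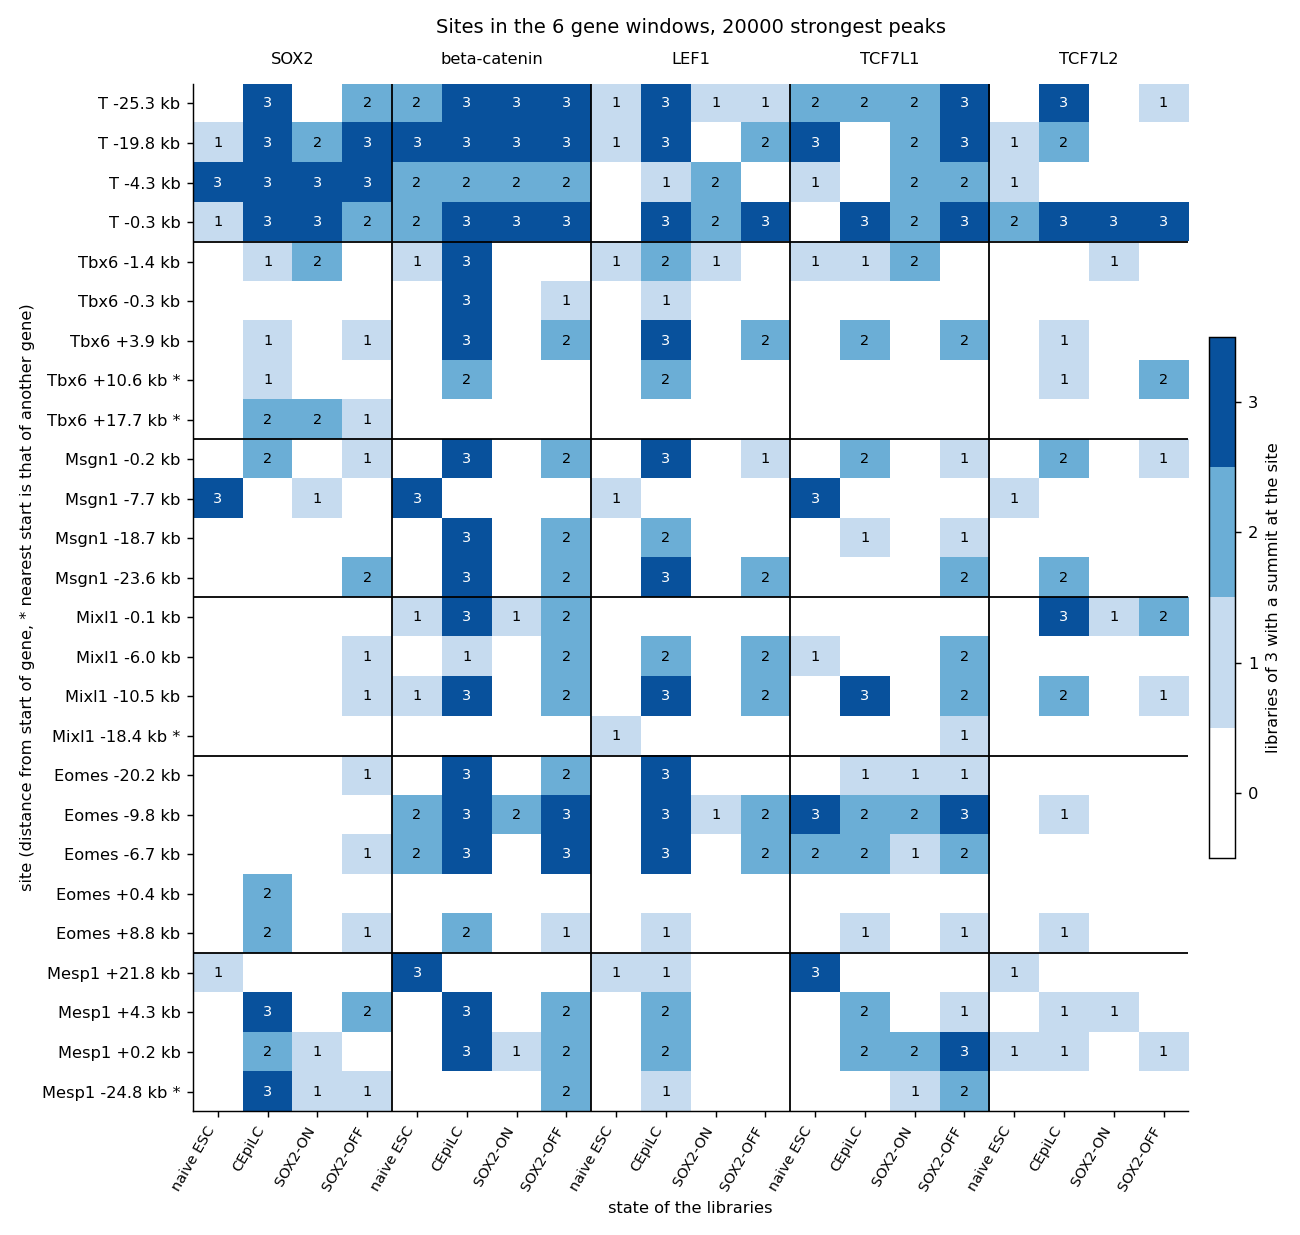
Number of libraries out of 3 with a summit at each of the 26 followed sites (rows, distance from the start of the gene in kb) for 5 targets and 4 states (columns), by colour and digit, with empty cells at 0. An asterisk marks a site nearest to the start of another gene. The columns of CEpiLC are the fullest for β-catenin (55 of 78) and LEF1 (47 of 78).

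Over whole windows, β-catenin peaks among the 20000 strongest were present in 18 of 18 pairs of gene and library in CEpiLC, 16 in naive ESC, 14 in SOX2-OFF and 12 in SOX2-ON. The share over all protein-coding genes was 49.4%, 53.1%, 40.4% and 52.7%. LEF1 peaks were present in 18, 9, 15 and 8 of 18 in that order of states, beside 44.1%, 53.2%, 52.7% and 51.2% of all pairs. TCF7L1 peaks were present in 14, 16, 17 and 9, beside 40.9%, 54.0%, 54.4% and 50.6% of all pairs. TCF7L2 peaks were present in 15, 14, 11 and 14, beside 52.1%, 60.1%, 48.3% and 59.1%. SOX2 peaks were present in 15, 9, 13 and 10, beside 59.6%, 56.8%, 57.6% and 52.0%.

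**Figure D5:**
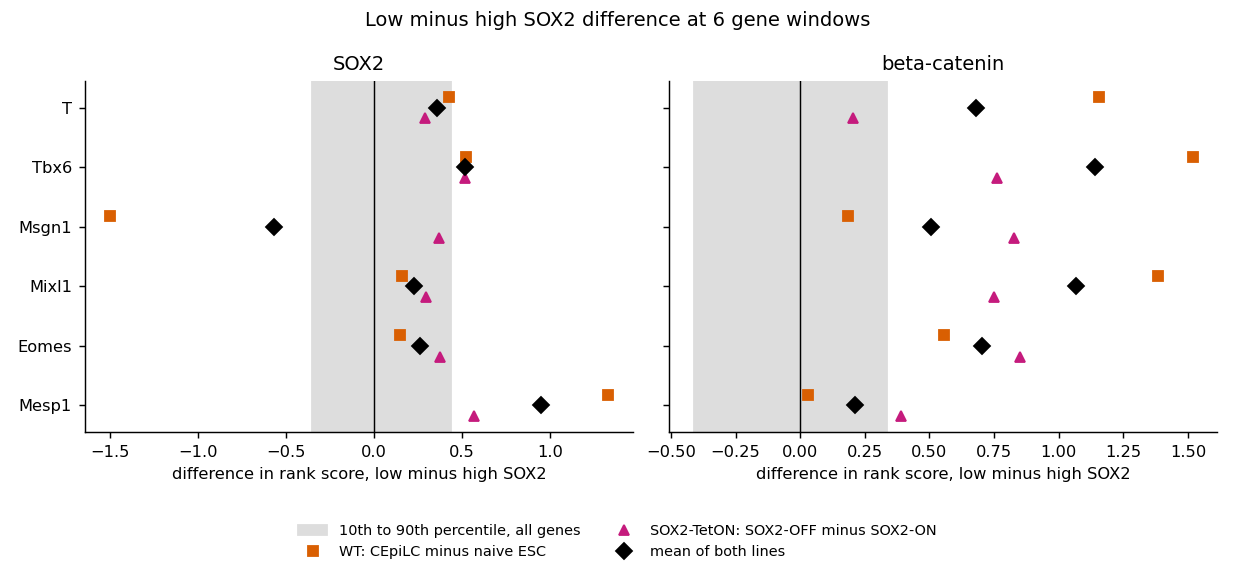
Difference in rank score between low and high SOX2 (horizontal axis, no unit) at each gene, for SOX2 (left) and β-catenin (right). Squares are the WT line, triangles the SOX2-TetON line, diamonds their mean, and the grey band spans the 10th to 90th percentile of the mean over all genes tested. For β-catenin 5 of the 6 diamonds lie to the right of the band, and for SOX2 the Msgn1 square and triangle lie on opposite sides of 0.

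Other genes of the same steps were scored in the same windows. They were chosen with earlier results of these data known. Their shares beside those of all genes are therefore a description and not a test of enrichment. Of 10 genes of the paraxial mesoderm, 3 had higher β-catenin scores at low SOX2 and 0 lower, beside the 9.87% and 12.9% of all genes, with a median difference of 0.28. The 3 were Hes7, an oscillating Notch target (1.19, exact permutation p = 0.005), Mesp2, a segmentation factor (0.69, exact permutation p = 0.035), and Meox1, a homeobox gene of the somites (0.35, exact permutation p = 0.035). Mesp2 lies beside Mesp1 and shares its strongest low-SOX2 peaks. For SOX2 1 of the 10 was higher, Mesp2 (0.87, exact permutation p = 0.02), and 1 lower, Foxc2 (−0.14, exact permutation p = 0.05). Among all genes 14.4% and 8.71% passed in these directions for SOX2.

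Of 12 genes of the primitive streak and mesendoderm, 5 had higher β-catenin scores at low SOX2 and 1 lower. The median difference was 0.26, and among all genes 9.87% and 12.9% passed in these directions. The secreted factors Wnt3a (1.15, exact permutation p = 0.02), Fgf8 (1.08, exact permutation p = 0.02) and Wnt3 (0.47, exact permutation p = 0.02) rose, as did the transcription factors Hand1 (1.1, exact permutation p = 0.02) and Evx1 (0.86, exact permutation p = 0.01). Snai1, a repressor of E-cadherin, fell by 0.92 (exact permutation p = 0.005). For SOX2 7 of the 12 were higher (Evx1, Foxa2, Gata4, Wnt3a, Fgf8, Nodal and Hand1) and 1 lower (Snai1), beside the 14.4% and 8.71% of all genes.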

How the data were processed

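Chromatin immunoprecipitation with sequencing was carried out for 5 targets in 4 states with 3 replicates, on cells fixed with disuccinimidyl glutarate and formaldehyde. The authors aligned single-end reads to mm10 with BWA in the nf-core/ChIP-seq pipeline and called peaks in each library with MACS2 (build and caller also in the submitters' processing notes), without pooling replicates. Which of the 4 input samples served which library is not given in the sources used here, and the inputs were not analysed here. The deposited lists give a fold enrichment (a ratio over background), the −log10 p-value and the −log10 q-value at the summit, as the authors' caller wrote them.

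Peaks were ranked by fold within a library. Windows of 30 kb around gene bodies, the rank score, the exact permutation tests (400 assignments, p at most 0.05 counted as passing) and sites (summits under 200 bp apart, extended by 150 bp on each side) were computed in python 3.11.15 with numpy 2.4.6 and pandas 2.3.3, and drawn with matplotlib 3.10.9. Genes without a peak of the target in any library were left out of the test, and p-values were adjusted by the Benjamini-Hochberg method over all genes tested. The test code was checked on simulated, normally distributed scores, which lack the zeros and ties of the real scores. Its power for these data was not measured. Sequences were read with pysam 0.24.0 after indexing with samtools 1.23.1. LEF1, TCF7L1 and TCF7L2 were given as values and counts only. The named sites were the up to 4 per gene with a summit in the largest number of libraries, ties taken by median fold, plus the site nearest the start within 1 kb. The members and the lists of other genes were chosen with earlier results of these data known. Replicates are labelled as biological replicates, and same-numbered libraries of the 2 SOX2 levels did not deviate together (correlation 0.001 to 0.068 over genes), so they were not paired. Alternatives were list length, ranking by −log10 p-value, a 10 kb flank, nearest gene only, a −log10 q-value of at least 5, log2(fold + 1), a gap of 500 bp between sites, and leaving out each library. No read counts were used, so no counting intervals are given.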

Additional observations from a re-analysis of the deposited data

Results flagged for a closer look

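At Msgn1 the change of the SOX2 rank score from high to low SOX2 differed between the cell lines by 1.87 (exact permutation of line labels, p = 0.045, the lowest of the 12 tests of this kind and not adjusted for them). The WT line went from 1.87 ± 0.17 to 0.37 ± 0.39 (mean ± SD, n = 3) and the SOX2-TetON line from 0.03 ± 0.05 to 0.40 ± 0.42. All 3 naive ESC libraries had their strongest SOX2 peak of the window at Msgn1 −7.7, and 1 of the 3 SOX2-ON libraries had a summit there. Naive ESC and SOX2-ON also differ in medium, so cell line and medium cannot be told apart in this gap.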

How the results depend on the processing

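For the difference between low and high SOX2, 75 of 96 alternative values of the 12 tests kept direction and side of the threshold. On the log2(fold + 1) scale SOX2 at T (0.07), Tbx6 (1.87) and Mesp1 (1.80) and β-catenin at T (0.87), Tbx6 (2.02), Mixl1 (2.37) and Eomes (1.17) did not pass, and β-catenin at Mesp1 turned to −0.45. With all deposited peaks β-catenin at Tbx6 (0.98) and Mixl1 (0.89) did not pass and Mesp1 turned to −0.02. With a 10 kb flank SOX2 at Tbx6 (0.38) did not pass, while SOX2 at Eomes (0.30) and β-catenin at Mesp1 (0.78) did. With nearest-gene summits only, SOX2 at Tbx6 (0.28) did not pass and at Eomes (0.30) did. The causes were not tested.

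With a replicate block (exact permutation, 64 assignments, smallest p = 0.03125) the values stay as they are by construction, and SOX2 at Tbx6 (0.52) and Mesp1 (0.95) and β-catenin at T (0.68), Tbx6 (1.14) and Mixl1 (1.07) did not pass. The block changed no other call.

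The gap between the lines turned for SOX2 at Tbx6 when ranked by −log10 p-value (0.08) or with −log10 q-value of at least 5 (0.09), for SOX2 at Eomes on the log2 scale (−0.43), and for β-catenin at Mesp1 with all peaks (−0.09) and a 10 kb flank (−0.77). For SOX2 at Msgn1 it did not pass under the p-value ranking (1.66) or the q-value limit (1.79), and at Mesp1 it passed with a 10 kb flank (−0.73). SOX2-OFF minus CEpiLC turned for SOX2 at Tbx6 with a 10 kb flank (−0.12) and on the log2 scale (−0.63), at Msgn1 under the p-value ranking (−0.03) and the q-value limit (−0.06), and at Eomes on the log2 scale (−0.66).

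Window counts, low minus high SOX2 libraries, stood at 9 (SOX2), 4 (β-catenin), 16 (LEF1), 6 (TCF7L1) and −2 (TCF7L2). With all deposited peaks they fell to 0 (SOX2), −3 (β-catenin), −2 (LEF1) and −9 (TCF7L2). Of 18 pairs of gene and library, those with a TCF7L2 peak were then 18 (naive ESC), 18 (SOX2-ON), 15 (CEpiLC) and 12 (SOX2-OFF). For β-catenin they were 18, 17, 18 and 14 in that order. With lists of equal length they were 22 for β-catenin, 15 for TCF7L1 and 9 for TCF7L2, and with the q-value limit 4 for TCF7L2. At the followed sites, all deposited peaks gave 36 for β-catenin, 27 for LEF1 and 33 for TCF7L2, in place of 59, 53 and 21.

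Leaving out 1 library gave, for low minus high SOX2, ranges of 0.29 to 0.44 (SOX2 at T), 0.39 to 0.68 (SOX2 at Tbx6), 0.18 to 0.37 (SOX2 at Eomes) 0.39 to 0.74 (β-catenin at Msgn1) and 0.09 to 0.39 (β-catenin at Mesp1). SOX2 at Eomes passed without naive ESC replicate 1 (0.30) or SOX2-OFF replicate 1 (0.37). The gap between lines ranged from −0.25 to 0.32 (Tbx6), 1.64 to 2.07 (Msgn1), −0.16 to 0.30 (Mixl1), 0.08 to 0.45 (Eomes) and −1.03 to −0.43 (Mesp1) for SOX2, and from −1.15 to −0.75 (T) and −1.03 to −0.31 (Tbx6) for β-catenin. SOX2-OFF minus CEpiLC ranged from −0.20 to 0.03 (T), −0.11 to 0.46 (Tbx6), −0.21 to 0.23 (Msgn1), −0.16 to 0.30 (Mixl1) and −0.05 to 0.32 (Eomes) for SOX2, and from −0.02 to 0.14 for β-catenin at T. Read depth is unknown, and a peak missing from the 20000 strongest can be present at a lower rank of the same list.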

Other observations

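Of the 26 followed sites, 4 lay nearest to the start of a gene other than the member: Tbx6 +10.6 (Ppp4c), Tbx6 +17.7 (Fam57b), Mixl1 −18.4 (Acbd3) and Mesp1 −24.8 (Mesp2). At Mesp1 −24.8 SOX2 had folds of 4.97, 10.7 and 8.0 in CEpiLC, 7.43 in SOX2-ON replicate 2 and 5.47 in SOX2-OFF replicate 1. At Tbx6 +17.7 SOX2 was the only target with a summit among the 20000 strongest peaks, in CEpiLC replicates 1 and 3, SOX2-ON replicates 1 and 2 and SOX2-OFF replicate 2, while all deposited peaks held summits of the other targets there.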
